A study of Mus musculus with 4 samples.

Results

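Rgs9, Pde10a, Scn4b, Arpp21, Ptpn5, Rgs4, Pcp4l1 and Gpr6 are 8 of the 383 genes whose transcripts were counted in single cells of mouse brain sections at the level of the striatum. They were chosen by name, as signalling genes of spiny neurons, and with earlier results of these data known. All 8 passed the filter on low counts in every comparison. The questions were how their levels differed between spiny neurons rich in Drd1 or in Drd2 and other neurons, where in the striatum they were high, and whether they changed between 2 and 18 months of age.

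The sections came from wild-type C57BL/6NTac mice with no further allele or agent, and each held both hemispheres of a fresh frozen brain cut in the coronal plane. The Young group was 2 sections from mice of 2 months and the Aged group 2 sections from mice of 18 months, described by the study as biological replicates. Each cell was imaged by MERFISH (multiplexed error-robust fluorescent in situ hybridization), which reads single mRNA molecules in place. With 2 sections per age, the p-values measure the spread between these 4 sections and nothing wider.

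Spiny neurons are the GABAergic projection neurons that make up most of the striatum. Those of the direct pathway carry the dopamine receptor Drd1, which raises cAMP, and those of the indirect pathway carry Drd2, which lowers it. Several of the 8 genes act on these signals. Rgs9 and Rgs4 encode regulators of G protein signalling that shorten the action of G protein coupled receptors, and Gpr6 is an orphan receptor of the indirect pathway that raises cAMP. Pde10a breaks down cAMP and cGMP. Arpp21 encodes a cAMP-regulated phosphoprotein that also binds RNA. Ptpn5 encodes STEP, a tyrosine phosphatase of the postsynapse, Scn4b a β subunit of voltage-gated sodium channels, and Pcp4l1 a small protein of the PCP4 family that resembles calmodulin-binding peptides.

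On GRCm38 the GENCODE annotation places Rgs9 at chr11:109225355-109298129 (minus strand), Pde10a at chr17:8525372-8986648 (plus strand), Scn4b at chr9:45138395-45154152 (plus strand), Arpp21 at chr9:112065091-112235938 (minus strand), Ptpn5 at chr7:47077795-47133684 (minus strand), Rgs4 at chr1:169741477-169747642 (minus strand), Pcp4l1 at chr1:171173262-171196268 (minus strand) and Gpr6 at chr10:41069977-41072285 (minus strand).

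The promoters of 4 genes are shown because the largest differences below belong to them. Gpr6 differed most between the receptor types, and Rgs4, Scn4b and Pde10a differed most along the axes of the striatum. The windows are those of RefSeq on GRCm38.p6, with 250 bases before and 50 after the start of a transcript, and all 8 genes matched by symbol, with 18 windows in all. Capitals mark TGACG, the short form of the cAMP response element, on either strand. The windows lie at chr10:41072241-41072540 on the minus strand for Gpr6, chr1:169747593-169747892 on the minus strand for Rgs4, chr9:45138374-45138673 on the plus strand for Scn4b and chr17:8801495-8801794 on the plus strand for Pde10a (the first of its 2 windows).
Gpr6: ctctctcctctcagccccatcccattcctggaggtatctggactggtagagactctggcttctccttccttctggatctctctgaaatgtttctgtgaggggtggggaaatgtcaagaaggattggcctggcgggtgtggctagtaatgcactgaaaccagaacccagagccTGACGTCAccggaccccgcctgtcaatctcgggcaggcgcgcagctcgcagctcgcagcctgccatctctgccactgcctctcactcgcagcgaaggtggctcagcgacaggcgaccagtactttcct
Rgs4: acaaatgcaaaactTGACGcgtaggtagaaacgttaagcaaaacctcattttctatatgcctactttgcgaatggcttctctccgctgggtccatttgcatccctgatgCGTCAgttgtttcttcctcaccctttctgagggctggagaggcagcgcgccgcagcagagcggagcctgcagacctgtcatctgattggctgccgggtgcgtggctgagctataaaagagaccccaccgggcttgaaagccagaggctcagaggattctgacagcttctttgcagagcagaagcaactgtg
Scn4b: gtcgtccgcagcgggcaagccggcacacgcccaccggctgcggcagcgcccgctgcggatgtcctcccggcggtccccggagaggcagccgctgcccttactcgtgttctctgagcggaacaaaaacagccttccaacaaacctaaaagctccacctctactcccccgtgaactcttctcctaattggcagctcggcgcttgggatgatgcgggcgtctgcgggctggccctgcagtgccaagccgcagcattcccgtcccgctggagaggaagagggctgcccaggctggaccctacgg
Pde10a: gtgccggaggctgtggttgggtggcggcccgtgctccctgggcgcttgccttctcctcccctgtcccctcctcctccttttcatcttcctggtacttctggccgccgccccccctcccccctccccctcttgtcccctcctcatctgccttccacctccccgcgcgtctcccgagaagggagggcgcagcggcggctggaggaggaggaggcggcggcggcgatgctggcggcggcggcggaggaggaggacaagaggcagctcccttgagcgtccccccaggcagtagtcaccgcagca

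The Gpr6 window held the full element TGACGTCA, in which the short forms of both strands overlap and were counted as 2. This full element was found in 588 of 32851 promoter windows (1.79%), and in 1 of the 18 windows of the 8 genes. Short forms stood in 20.8% of all windows. Here they were in the windows of Gpr6, of Rgs4 (2 short forms) and in 3 of the 9 windows of Arpp21. The Arpp21 windows at chr9:112217212-112217511 and chr9:112217302-112217601 overlap and hold the same short form. The letters were absent from the windows of the other 5 genes. TATAAA, the core of a TATA box, was in 13.6% of all windows and in those of Rgs9, Rgs4 and Pcp4l1. Such matches describe the letters of the window and not the binding of a factor.

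After the filters on detected genes and volume, 281824 cells were kept, and the median kept cell held 400 and 325 transcripts in the Young sections against 215 and 293 in the Aged sections. Clusters were made from the other 375 genes, so that none of the 8 took part. In the cluster named spiny neuron-like (70418 cells), 6 of 6 spiny neuron markers were above 1.5-fold over the other cells, with a median fold of 6.39. No cell identifier was shared between sections. Cells with at least 3 detected markers of their own class and of another were left out as mixed, which left 30322 of 49852 spiny neuron-like cells inside the outline of the striatum. This removal was unequal between sections. Of all spiny neuron-like cells, 8507 of 19217 and 5874 of 16421 were mixed in the Young sections. In the Aged sections 4770 of 17166 and 6430 of 17614 were. The count of detected markers can rise with depth. Of the 30322 cells kept, 8880 were called Drd1-rich and 7447 Drd2-rich by a gate that asked for at least 3 transcripts of the own receptor and at least 4 times those of the other. The remaining 13995 passed neither gate, and their median transcripts per cell (133 to 157) were below those of both gates (332 to 568). A further 28003 neuron-like cells outside the outline served as other neurons. Levels below are transcripts of a gene per 10000 transcripts of all 383 genes, summed over the cells of a group in a section. Since each gene has its own probes, levels were compared between groups for one gene and not between genes.

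In striatal spiny neuron-like cells, each of the 8 genes except Rgs4 stood above other neurons outside the striatum in every section. These levels describe rebuilt classes and carry no test. Rgs9 stood at 263 and 318 in the Young, 329 and 274 in the Aged sections, against 10.4 to 15.1 in other neurons, a ratio of 17.4 to 26.3 over the 4 sections. Pde10a stood at 445 and 443 in the Young, 334 and 401 in the Aged sections, with a ratio of 13.4 to 19.4. Scn4b had 215 and 248 against 157 and 183, and its ratio was 8.15 to 12.4. For Rgs9, Pde10a and Scn4b the lowest spiny value was many times the highest of other neurons.

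Arpp21 reached 346 and 361 in Young, 387 and 365 in Aged spiny cells, and the other neurons outside the striatum still had 81.1 to 100, so that its ratio was 3.85 to 4.26. Pcp4l1 had 167 and 154 in Young, 137 and 171 in Aged spiny cells, with a ratio of 4.72 to 5.92. Ptpn5 was measured at 54.4 and 45.9 in Young, 40.9 and 37.8 in Aged sections, 2.70 to 3.26 times other neurons. Gpr6 gave few counts, with 0.146 to 0.464 transcripts per spiny cell. Its level was 10.1 and 7.57 in Young, 5.58 and 6.83 in Aged sections, 2.41 to 4.59 times other neurons.

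Rgs4 was the exception. Spiny cells had 155 and 248 in Young, 139 and 178 in Aged sections, and other neurons outside the striatum had 112 and 201 in Young, 157 and 166 in Aged sections. The ratio ran from 0.885 to 1.38 and fell on both sides of 1, so these neighbouring classes overlapped. Inside the striatum, the few neuron-like cells that were not spiny (241 to 314 per section) had 80.9 to 122 for Rgs4, and spiny cells were 1.49 to 2.03 times higher. Against the same cells, the ratio was 7.81 to 8.63 for Rgs9, 6.80 to 7.92 for Pde10a and 2.13 to 2.25 for Ptpn5.

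**Figure D1:**
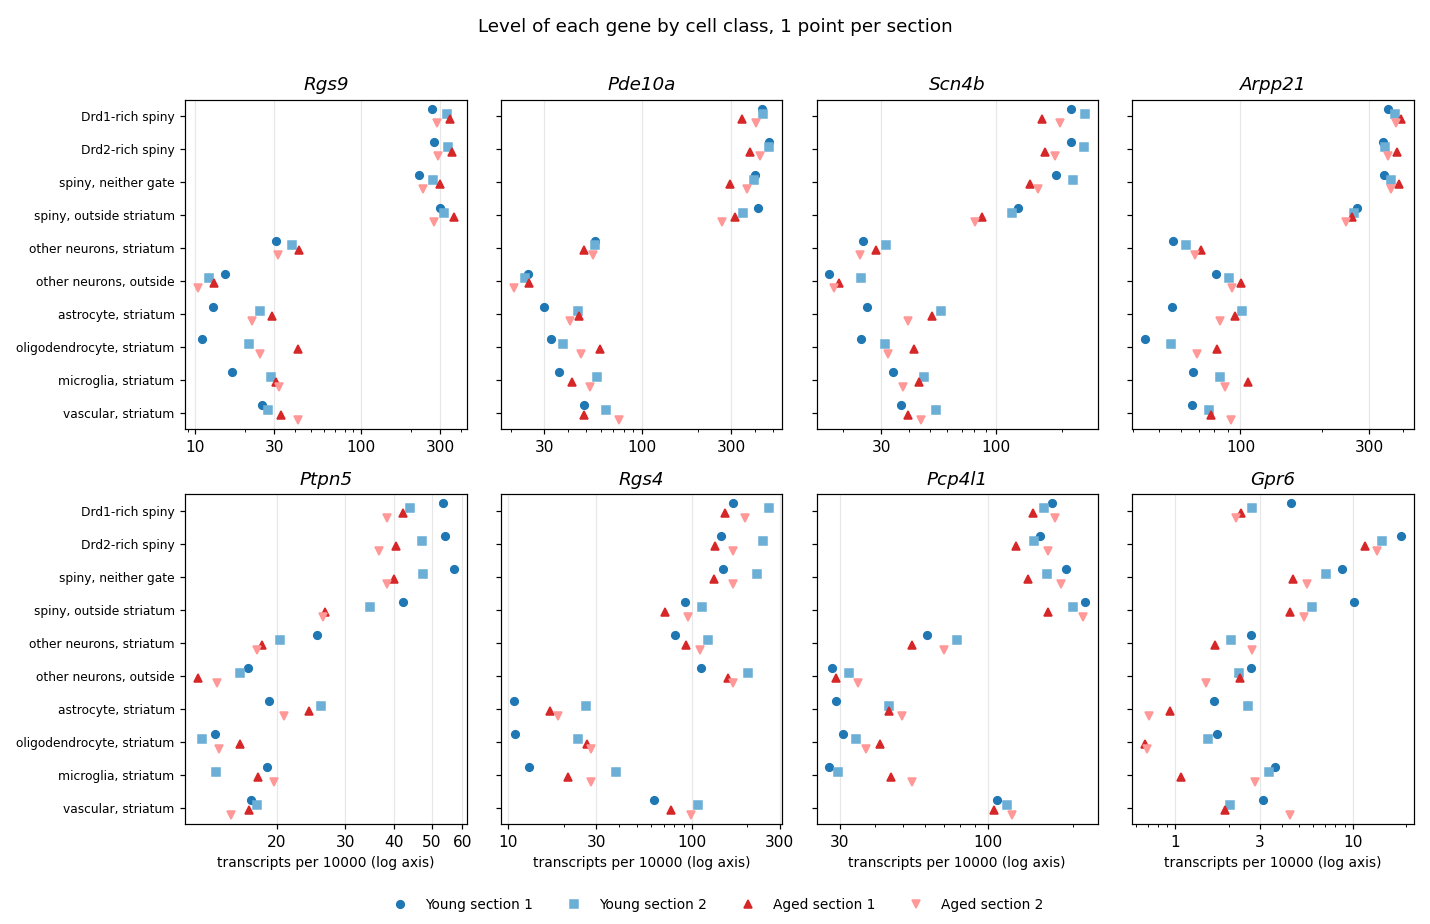
Level of each gene in transcripts per 10000 (horizontal log axis) in 10 groups of cells (vertical), with 1 point per section and a colour and shape for each of the 4 sections. Rgs9 and Pde10a in spiny cells stand apart from every other class, Rgs4 reaches similar values in spiny cells and in other neurons outside the striatum, and Gpr6 is highest in Drd2-rich cells.

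Spiny neuron-like cells outside the outline gave another pattern. Pcp4l1 was higher there than in the striatum in 4 of 4 sections, with 162 to 220 against 137 to 171. Rgs9 was close in both places, with a ratio of striatum over outside of 0.871 to 1.01. Scn4b and Rgs4 were higher in the striatum in every section, by 1.69 to 2.28 times and 1.70 to 2.19 times. The cells outside also differed in depth and markers, in 1 direction in each section. Their median was 130 to 216 transcripts, against 213 to 366 in the striatum. The summed level of 7 astrocyte markers was 52.0 to 103 outside and 34.4 to 54.7 inside. That of 6 general neuron markers was 1207 to 1584 and 1119 to 1245. The differences of the genes, and the part of depth and markers in them, were not tested.

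Transcripts of the 8 genes were also assigned to glial and vascular cells, and for Rgs9, Pde10a, Scn4b, Arpp21, Ptpn5 and Pcp4l1 the level was higher inside than outside the striatum in every section in astrocyte-like, oligodendrocyte-like, microglia-like and vascular-like cells. In microglia-like cells Pde10a stood at 35.9 to 57.3 inside and 7.40 to 13.4 outside the striatum. Rgs9 stood at 16.6 to 32.2 inside and 3.08 to 8.25 outside. Spiny cells remained 7.63 to 12.4 times above striatal microglia-like cells for Pde10a. How far transcripts of neighbouring neurons account for the glial values was not tested. Transcripts of Rgs4 and Pcp4l1 were also assigned to cells of the vascular-like cluster outside the striatum. These cells had 53.2 to 70.6 for Rgs4 and 46.2 to 65.3 for Pcp4l1, against 3.44 to 8.38 and 5.38 to 8.76 in oligodendrocyte-like cells outside the striatum. For Gpr6, vascular-like cells outside the striatum had 16.6 in the first Young section and 1.59 to 3.61 in the other 3, so that 1 section stood apart. The vascular-like cells outside the striatum were mixed in their markers. The summed level of 7 astrocyte markers was 1268 to 1467 in them and 490 to 606 in striatal vascular-like cells, and that of 7 vascular markers 305 to 479 and 709 to 791. Their 6 general neuron markers summed to 331 to 460, against 86.7 to 108 in the oligodendrocyte-like cells. The part of other cell types in the Rgs4, Pcp4l1 and Gpr6 values was not tested.

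The genes most like each of the 8 were sought by Pearson's r of the logged levels over 28 points, 7 classes in 4 sections. The points of a section share its depth, and these values are descriptions. Penk was nearest to Rgs9 (r = 0.968) and to Pde10a (r = 0.982). Scn4b went with Penk and Drd2 (r = 0.970 and 0.966). Arpp21 went with Drd1 and St8sia3 (r = 0.945 and 0.937), and Ptpn5 with Drd1 and Lrrc7 (r = 0.905 and 0.896). Rgs4 was nearest to Sorbs2 and Myt1l (r = 0.949 and 0.941), Pcp4l1 to Penk and Gad2 (r = 0.815 and 0.799), and Gpr6 to Igkc and Actn1 (r = 0.764 and 0.715). Among the 8 themselves, Rgs9 and Pde10a were closest (r = 0.984) and Rgs9 and Gpr6 farthest apart (r = 0.532).

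Gpr6 separated the 2 receptor types, and the other 7 genes differed little between them. Gpr6 stood at 18.7 and 14.6 in Young, 11.7 and 13.7 in Aged Drd2-rich cells, against 4.50 and 2.71 in Young, 2.34 and 2.21 in Aged Drd1-rich cells. The groups did not overlap, and the Drd2-rich level was 4.14 to 6.21 times the other. In edgeR with the section as a block, the log2 fold change of Drd1-rich over Drd2-rich cells was -2.40 ± 0.07 (SE), with an adjusted p of 1.04e-14, and its size ranked 5 among 382 genes. Other neurons outside the striatum had 1.49 to 2.69, a range that overlapped that of Drd1-rich cells. By the gate itself, Drd1 stood at 134 to 144 in Drd1-rich and 2.80 to 3.31 in Drd2-rich cells, and Drd2 at 3.92 to 5.15 and 167 to 189.

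Pde10a was higher in Drd2-rich cells in 4 of 4 sections, with 479 and 478 in Young, 378 and 428 in Aged sections against 440, 441, 344 and 406 in the same order. This is a ratio of 1.06 to 1.10, and the fitted log2 fold change was -0.20 ± 0.02 (SE) with an edgeR adjusted p of 1.84e-07. Rgs4 was higher in Drd1-rich cells in 4 of 4 sections, with 166 and 263 in Young, 151 and 193 in Aged sections against 144, 243, 133 and 167. Its log2 fold change was 0.10 ± 0.03 (SE), with an edgeR adjusted p of 0.00509. The gates also differed in depth in 4 of 4 sections. The median Drd1-rich cell held 568 and 491 transcripts in Young, 383.5 and 472.5 in Aged sections, against 496, 419, 332 and 409 in Drd2-rich cells. The summed level of 6 general neuron markers was 1182 to 1294 in Drd1-rich and 1030 to 1135 in Drd2-rich cells. Their part in the gate differences was not tested.

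In all, 5 of the 8 genes passed the threshold between the gates, where 47.4% of all genes tested did. Beside Gpr6, Pde10a and Rgs4 these were Rgs9, with a log2 fold change of -0.11 ± 0.02 (SE) and an edgeR adjusted p of 0.000238, and Scn4b, with -0.07 ± 0.02 (SE) and an edgeR adjusted p of 0.0134. Both were small. On the plain scale per 10000 transcripts, Scn4b was higher in Drd1-rich cells in 2 of 4 sections. By limma on that scale its log2 difference was 0.01, while that scale moved the median of all genes from 0.00 to 0.08, and 3 of the 8 genes then passed. Of all genes, 88 were higher and 93 lower in Drd1-rich cells by edgeR, 120 and 57 by limma, and 200 and 50 per cell volume. Ptpn5, Pcp4l1 and Arpp21 did not pass (edgeR adjusted p = 0.0537, 0.156 and 0.988). Plain levels of Pcp4l1 and Arpp21 were higher in Drd1-rich cells in 4 of 4 sections, with ratios of 1.06 to 1.15 and 1.03 to 1.08. Ptpn5 lay close to the threshold, and its call depended on the setting, as given in the closing part. Counted per cell volume, the median of all genes moved to 0.19, Pde10a came to -0.01 with an edgeR adjusted p of 0.780, and 4 genes changed sign, as given in the closing part. Of the 15 other striatal and receptor genes, 3 were higher and 6 lower in Drd1-rich cells. After Drd2 and Drd1, which made the gate, Penk, the enkephalin precursor of the indirect pathway, changed most with -3.88 ± 0.08 (SE) and an edgeR adjusted p of 9.17e-18. Of 14 general neuronal genes, 9 were higher and 1 lower.

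**Figure D2:**
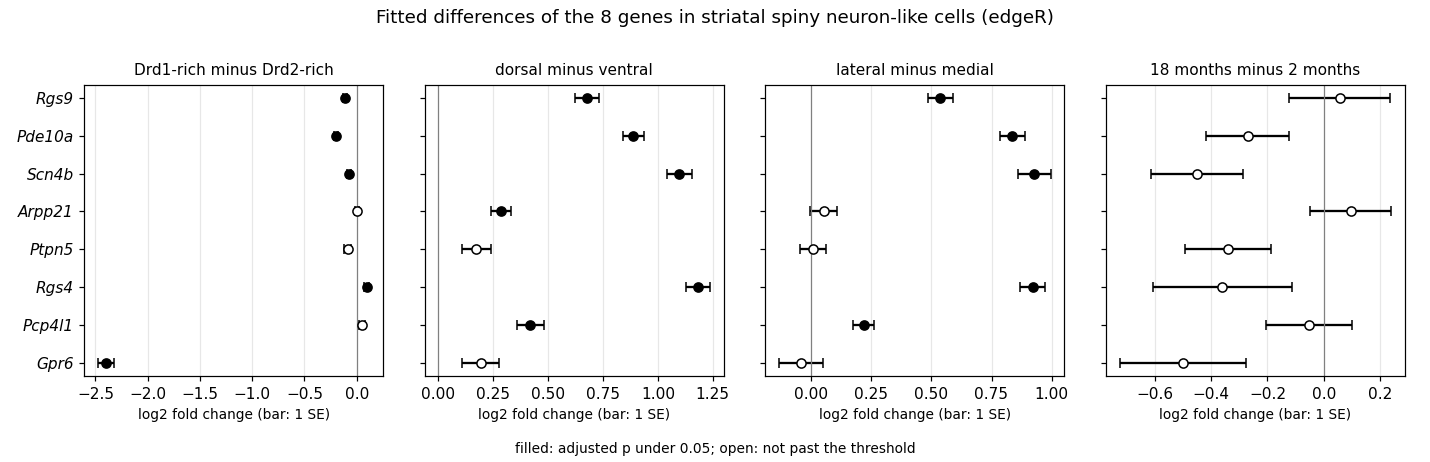
Fitted log2 fold change of each gene (points, with bars of 1 SE; each panel has its own horizontal scale) for 4 comparisons in striatal spiny neuron-like cells. Gpr6 alone exceeds 1 in size between the gates (-2.40), Rgs4 (1.18) and Scn4b (1.10) exceed 1 between dorsal and ventral parts, and no gene passes the threshold with age.

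By edgeR, and not by limma, the gate difference of Scn4b and Arpp21 depended on the part of the striatum. The test was chosen after the levels by gate and part had been examined, so its p-values rest on the levels that led to it. The fit took the sums of each gate and part in a section as separate values, with the section as the only block. Scn4b in dorsal Drd1-rich cells stood at 311 and 319 in Young, 233 and 248 in Aged sections, above dorsal Drd2-rich cells with 279 and 292 in Young, 212 and 220 in Aged sections. In the ventral part the order turned, with 146 and 173 in Young, 102 and 132 in Aged Drd1-rich cells, below 164 and 193 in Young, 119 and 135 in Aged Drd2-rich cells. The order was the same in 4 of 4 sections in each part. The interaction of gate and part was 0.34 ± 0.07 (SE) on the log2 scale with an edgeR adjusted p of 0.00129.

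Arpp21 was higher in dorsal Drd1-rich cells, with 382 and 394 in Young, 442 and 398 in Aged sections against 334, 344, 392 and 351 in dorsal Drd2-rich cells. In the ventral part the ratio of Drd2-rich over Drd1-rich cells was 0.999 to 1.04. Its interaction was 0.27 ± 0.06 (SE) with an edgeR adjusted p of 0.00299. These 2 of the 8 genes passed, where 5.79% of all genes tested did. Of the 15 other striatal and receptor genes 6 passed, 4 with a positive and 2 with a negative interaction. Among these 15, Penk had the largest (-1.22 ± 0.19 (SE), edgeR adjusted p = 5.26e-05). Drd2, a gene of the gate, also differed (0.46 ± 0.08 (SE), edgeR adjusted p = 0.000466). By limma on log2 levels neither Scn4b nor Arpp21 passed (adjusted p of 0.171 for Scn4b and 0.178 for Arpp21). Rgs4 was higher in Drd1-rich cells in both parts in 4 of 4 sections, and its interaction was 0.06 ± 0.07 (SE) with an edgeR adjusted p of 0.858. For Gpr6 the Drd2-rich cells were 5.24 to 9.50 times higher in the dorsal and 3.48 to 5.62 times higher in the ventral part, and the interaction did not pass (-0.43 ± 0.17 (SE), edgeR adjusted p = 0.184).

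**Figure D3:**
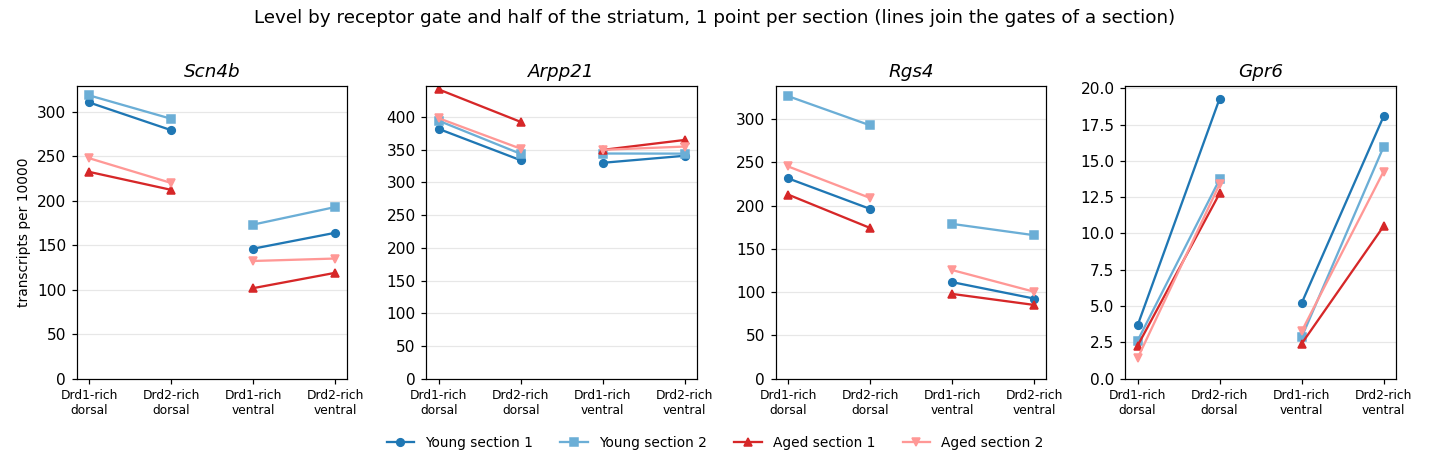
Level in transcripts per 10000 (vertical) of 4 genes in Drd1-rich and Drd2-rich cells of the dorsal and ventral part (horizontal), with 1 point per section and lines that join the gates of a section. Scn4b is lower in Drd2-rich cells in the dorsal part (ratio 0.888 to 0.917) and higher in them in the ventral part (1.02 to 1.17) in all 4 sections.

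The striatum of each hemisphere was divided at the middle of its extent into a dorsal and a ventral part. All 8 genes had a fitted level in the dorsal part above that in the ventral part, and 6 of the 8 passed the threshold, where 33.7% of all genes tested did. Rgs4 differed most. It stood at 218 and 313 in Young, 200 and 229 in Aged dorsal cells, and at 99.9 and 166 in Young, 87.6 and 112 in Aged ventral cells. The parts did not overlap, and each section showed a ratio of 1.88 to 2.28. The log2 fold change was 1.18 ± 0.05 (SE) with an edgeR adjusted p of 1.23e-09, ranked 5 of 383 genes by size.

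Scn4b stood at 294 and 306 in Young, 228 and 228 in Aged dorsal cells, and at 146 and 176 in Young, 96.7 and 125 in Aged ventral cells. Its log2 fold change was 1.10 ± 0.06 (SE) with an edgeR adjusted p of 4.12e-09. Pde10a had 585 and 538 in Young, 440 and 476 in Aged dorsal cells against 323, 323, 245 and 304 in ventral cells, a log2 fold change of 0.89 ± 0.05 (SE) with the same edgeR adjusted p of 4.12e-09. Rgs9 had 316 and 359 in Young, 404 and 327 in Aged dorsal cells against 216, 267, 266 and 206 in ventral cells. Its log2 fold change was 0.68 ± 0.05 (SE) with an edgeR adjusted p of 1.25e-07. For each of these 4 genes the lowest dorsal value was above the highest ventral value. How many of all genes separated in this way was not counted.

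Pcp4l1 and Arpp21 had shallower slopes. Pcp4l1 was 1.13 to 1.30 times higher in the dorsal part, with a log2 fold change of 0.42 ± 0.06 (SE) and an edgeR adjusted p of 7.34e-05. For Arpp21 the ratio was 1.09 to 1.21, with 0.28 ± 0.04 (SE) and an edgeR adjusted p of 0.000143. Ptpn5 and Gpr6 did not pass (0.17 ± 0.07 and 0.19 ± 0.09 (SE), edgeR adjusted p = 0.0585 and 0.102), and their ratios over sections fell on both sides of 1, at 0.953 to 1.12 and 0.960 to 1.30. Ptpn5 passed in 7 of 14 alternatives, with a positive value in each of the 14. On the plain scale per 10000 transcripts the median of all genes was -0.09 in place of 0.02, and Arpp21 did not pass by limma (0.17, adjusted p = 0.125). Of all genes, 63 were higher and 66 lower in the dorsal part by edgeR, and 40 and 93 by limma.

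In 6 segments of 500 µm from the dorsal edge, Rgs4 was highest in the second segment in all 4 sections and had 203 to 314 in the first and 54.2 to 102 in the sixth. The first over the sixth segment gave a ratio of 3.09 to 3.74 for Rgs4, 2.84 to 3.90 for Scn4b, 2.01 to 2.29 for Pde10a and 1.47 to 2.22 for Rgs9. For Pcp4l1 it was 1.43 to 1.66 and for Arpp21 1.21 to 1.43. Arpp21 kept within 335 to 439 over the first 5 segments and was lowest in the sixth (268 to 314) in each section. The sixth segment had 589 to 1173 cells per section.

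**Figure D4:**
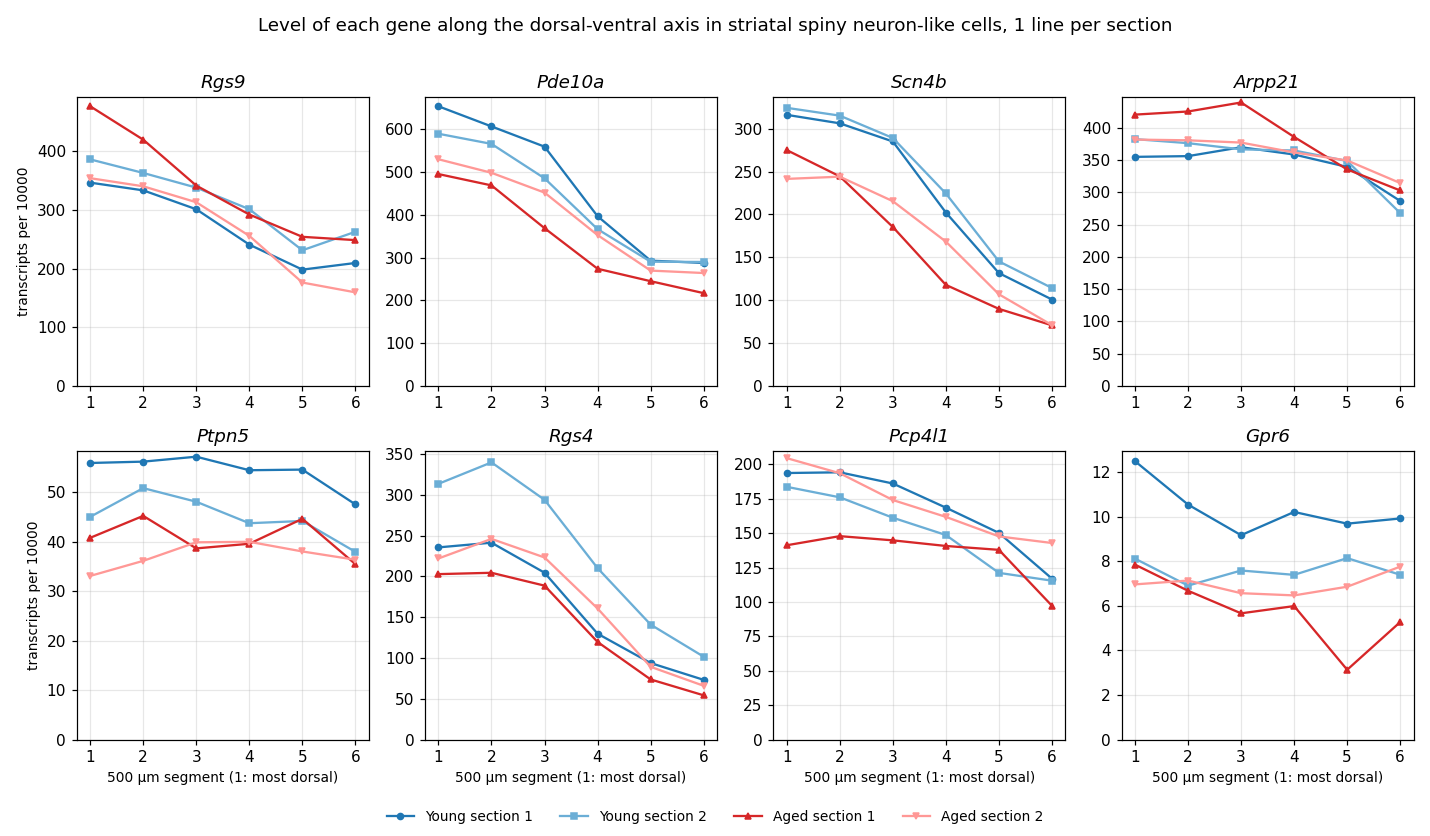
Level in transcripts per 10000 (vertical, from 0) of each gene in 6 segments of 500 µm from the dorsal edge of the striatum (horizontal), 1 line per section. Pde10a, Scn4b, Rgs4 and Rgs9 decline over the middle segments in all 4 sections, while Ptpn5 and Gpr6 show no common slope.

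Within each gate, Rgs4, Pde10a, Scn4b, Rgs9 and Pcp4l1 were higher in the dorsal part in 4 of 4 sections. The dorsal over ventral ratio of Rgs4 was 1.83 to 2.17 in Drd1-rich and 1.77 to 2.12 in Drd2-rich cells, and that of Pde10a was 1.51 to 1.76 and 1.48 to 1.66. For Scn4b it was 1.84 to 2.28 in Drd1-rich and 1.51 to 1.78 in Drd2-rich cells, ranges that did not overlap. Arpp21 was higher in the dorsal part in 4 of 4 sections in Drd1-rich cells (1.14 to 1.26) and in 1 of 4 in Drd2-rich cells (0.980 to 1.08).

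The same 4 genes were also higher in the lateral part. Scn4b stood at 263 and 303 in Young, 199 and 228 in Aged lateral cells, and at 137 and 188 in Young, 96.2 and 139 in Aged medial cells, with a log2 fold change of 0.93 ± 0.07 (SE) and an edgeR adjusted p of 5.28e-06. Rgs4 had 193 and 306 in Young, 170 and 226 in Aged lateral cells against 95.0, 185, 95.1 and 131 in medial cells. Its log2 fold change was 0.92 ± 0.05 (SE) with an edgeR adjusted p of 1.69e-06. The sections of the 2 parts overlapped for Rgs4, since the second Young section was high in both, but the lateral value was higher within each section. Pde10a differed by 0.84 ± 0.05 (SE, edgeR adjusted p = 1.98e-06) and Rgs9 by 0.54 ± 0.05 (SE, edgeR adjusted p = 3.42e-05). Pcp4l1 differed by 0.22 ± 0.05 (SE, edgeR adjusted p = 0.00355), with ratios of 1.04 to 1.21, and did not pass by limma or per cell volume. Thus 5 of the 8 genes passed, where 43.6% of all genes tested did. Arpp21, Ptpn5 and Gpr6 did not pass (edgeR adjusted p = 0.483, 0.941 and 0.742). Of all genes, 88 were higher and 79 lower in the lateral part by edgeR, 56 and 102 by limma, and 49 and 120 per cell volume.

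The extremes lay in the dorsolateral and ventromedial sectors. Pde10a had 635 and 599 in Young, 470 and 548 in Aged dorsolateral cells against 156, 176, 110 and 170 in ventromedial cells, a ratio of 3.23 to 4.27. The ratio was 3.74 to 5.15 for Rgs4, 3.58 to 6.26 for Scn4b and 2.06 to 2.44 for Rgs9. It was 0.876 to 1.09 for Ptpn5 and 0.789 to 1.40 for Gpr6. The ventromedial striatum is the region of the nucleus accumbens. Depth and the levels of some other markers also differed between these sectors, each in 1 direction in 4 of 4 sections. The median dorsolateral cell held 428 and 364 transcripts in Young, 221 and 339 in Aged sections, and the median ventromedial cell 274, 270, 175 and 255. The summed level of 5 oligodendrocyte precursor markers was 9.31 to 12.9 dorsolaterally and 20.4 to 30.3 ventromedially, that of 7 astrocyte markers 32.1 to 51.6 and 41.1 to 66.2, and that of 6 general neuron markers 1040 to 1120 and 1267 to 1386. Their part in the differences between sectors was not tested.

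Among the 15 other striatal and receptor genes, 4 were higher and 5 lower in the dorsal part, with a median log2 fold change of -0.08, while the median of the 8 genes was 0.55 and that of all genes 0.02. Crym, which encodes a thyroid hormone binding protein, was lower (-1.16 ± 0.09, SE, edgeR adjusted p = 1.06e-07), and Spock3, a proteoglycan, was higher by 0.86 ± 0.06 (SE, edgeR adjusted p = 5.22e-08). Drd2 was higher by 0.65 ± 0.06 (SE, edgeR adjusted p = 2.55e-07). In the lateral part 5 of these genes were higher and 5 lower. Crym was lower there (-1.16 ± 0.09, SE, edgeR adjusted p = 8.53e-06), as were Oprm1, the μ opioid receptor (-0.91 ± 0.05, SE, edgeR adjusted p = 1.69e-06), and Htr2c, a serotonin receptor (-0.73 ± 0.05, SE, edgeR adjusted p = 2.41e-06). Of the 14 general neuronal genes, 1 was higher and 4 lower in the dorsal part, and 2 were higher and 6 lower in the lateral part.

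With age, none of the 8 genes passed the threshold in striatal spiny cells, and neither did any other gene (0% of 383 tested by edgeR, DESeq2 or limma). At an unadjusted p under 0.05, edgeR gave 21 genes and 1 of the 8, Scn4b. Each Young section exceeded each Aged section for Pde10a, Scn4b, Ptpn5 and Gpr6, 4 of the 8, where 15.7% of all genes did so, and each Aged section exceeded each Young section for Arpp21, where 17.2% of all genes did so. Rgs9, Rgs4 and Pcp4l1 overlapped between the ages.

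Scn4b was 215 and 248 in Young, 157 and 183 in Aged spiny cells, with a log2 fold change of -0.45 ± 0.16 (SE) and an edgeR adjusted p of 0.666. Gpr6 was 10.1 and 7.57 in Young, 5.58 and 6.83 in Aged cells (-0.50 ± 0.22 (SE), edgeR adjusted p = 0.775). Ptpn5 was 54.4 and 45.9 against 40.9 and 37.8 (-0.34 ± 0.15 (SE), edgeR adjusted p = 0.775). The 2 Young sections were almost equal for Pde10a, at 445 and 443, against 334 and 401 in the Aged sections (-0.27 ± 0.15 (SE), edgeR adjusted p = 0.823).

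Rgs4 had a log2 fold change of -0.36 ± 0.25 (SE, edgeR adjusted p = 0.823), and the Young sections decided it. Without the second Young section the value was 0.13, and without the first it was -0.70, where Rgs4 and Scn4b passed (edgeR adjusted p = 0.00687 and 0.0492). Arpp21 had 0.09 ± 0.14, Rgs9 0.06 ± 0.18 and Pcp4l1 -0.05 ± 0.15 (SE, edgeR adjusted p = 0.933, 0.967 and 0.967). The median of the 8 genes was -0.30, that of all genes 0.00, that of the 15 other striatal and receptor genes -0.04 and that of the 14 general neuronal genes -0.02, with none of either list past the threshold.

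In the same cells, both Aged sections had lower depth and higher summed levels of astrocyte and oligodendrocyte markers. The median spiny cell held 366 and 326 transcripts in Young and 213 and 293 in Aged sections. The summed level of 7 astrocyte markers in spiny cells was 34.4 and 40.2 in Young, 54.7 and 44.9 in Aged sections, with none of the 7 at 0 in any section. That of 6 oligodendrocyte markers was 9.16 and 8.38 against 10.3 and 10.15. The ages overlapped for 8 microglia markers, with 11.7 and 10.2 against 12.6 and 11.3. They also overlapped for 6 spiny neuron markers, with 716 and 666 against 654 and 689. The part of depth and of these markers in the differences with age was not tested. With the mixed cells kept, the median log2 fold change of the 8 genes with age was -0.28, and 0 genes passed by edgeR. Counted per cell volume, the median of all genes was -0.47 on the log2 scale and that of the 8 genes -0.72, with 0 genes past the threshold by edgeR and 23 at an unadjusted p under 0.05.

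**Figure D5:**
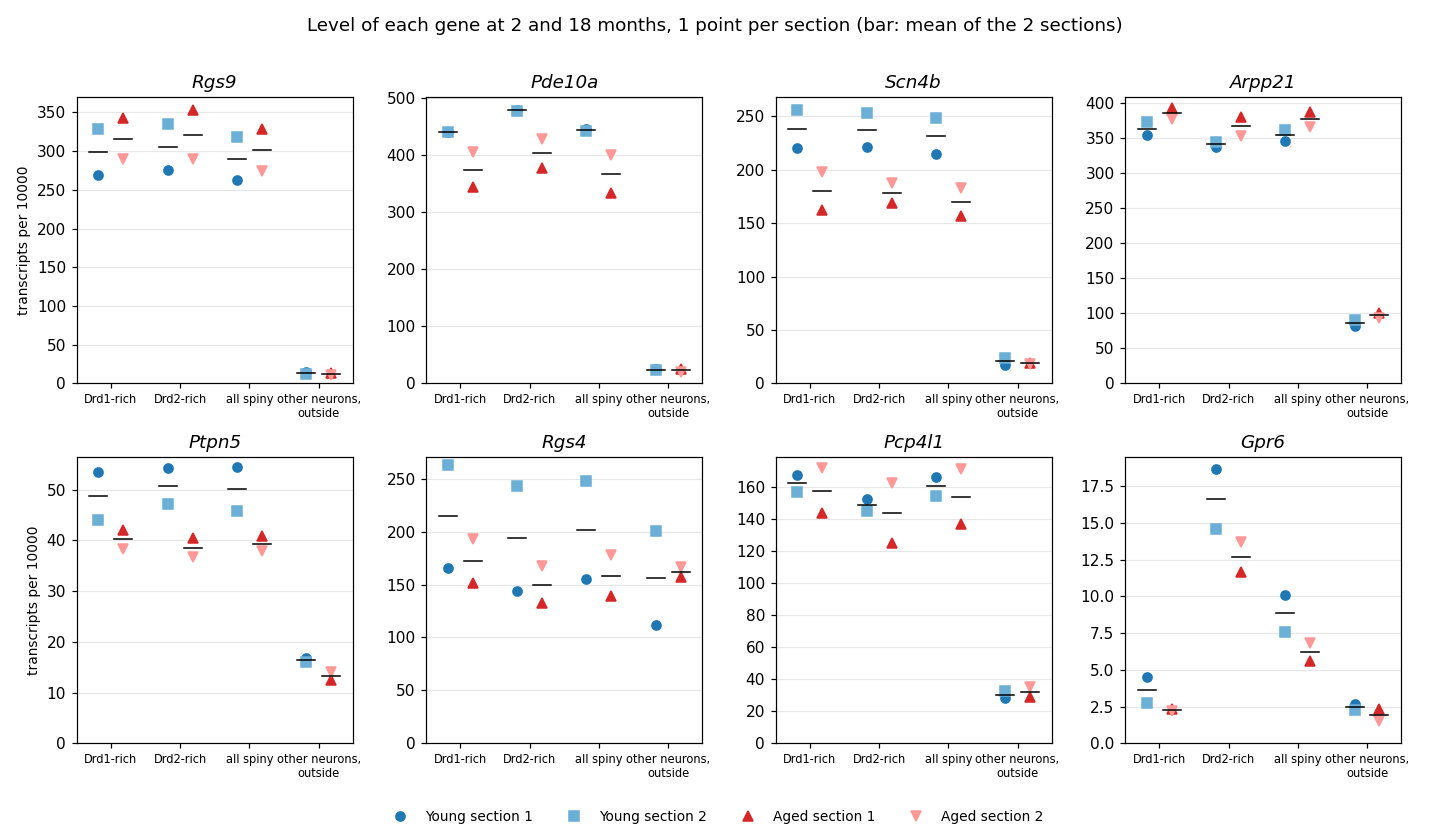
Level in transcripts per 10000 (vertical, from 0) of each gene at 2 months (blue) and 18 months (red) in 4 groups of cells (horizontal), with 1 point per section and a bar at the mean of 2 sections. Scn4b, Pde10a, Ptpn5 and Gpr6 are lower in both Aged sections in all 3 groups of spiny cells, and none of these differences passes the threshold.

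In Drd1-rich cells, Pde10a, Scn4b, Ptpn5 and Gpr6 were higher in both Young sections (4 of the 8, where 17.8% of all genes were), and in Drd2-rich cells the same 4 were (17.5% of all genes). By level, Arpp21 was higher in both Aged sections in each gate, as were 15.1% of all genes in Drd1-rich and 16.2% in Drd2-rich cells. Counted per cell or per cell volume, Arpp21 was lower in both Aged sections in each gate. These gates are subsets of the spiny cells above and not independent of them. They left out unequal shares of the sections. In the Young sections 2972 of 7950 and 2908 of 7099 spiny cells passed neither gate. In the Aged sections, which had lower depth, 4972 of 8515 and 3143 of 6758 did. The part of this loss in the differences with age was not tested. Scn4b had -0.36 ± 0.18 in Drd1-rich and -0.43 ± 0.16 in Drd2-rich cells (SE, edgeR adjusted p = 0.779 and 0.773). By edgeR 0% of genes passed in either gate, and DESeq2 and limma gave 0 as well. At an unadjusted p under 0.05 edgeR gave 24 genes in Drd1-rich cells, with Scn4b among the 8, and 22 in Drd2-rich cells, with Ptpn5 and Scn4b.

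In other neurons outside the striatum, Ptpn5 was the single gene of the 8 higher in both Young sections, with 16.9 and 16.1 against 12.5 and 14.0, where 18.8% of all genes were. By level, Arpp21 was higher in both Aged sections here too, with 100 and 93.3 against 81.1 and 90.6, where 18.5% of all genes were. The log2 fold change of Ptpn5 was -0.30 ± 0.20 (SE, edgeR adjusted p = 0.719). Scn4b had 17.4 and 24.1 in Young, 19.2 and 18.3 in Aged sections, which overlapped (-0.14 ± 0.22 (SE), edgeR adjusted p = 0.873). Here edgeR passed 0% of genes and limma 0, DESeq2 passed 1 that was not among the 8, and edgeR gave 22 at an unadjusted p under 0.05. Whether Scn4b changed differently in spiny cells and in other neurons was not tested.

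The change with age was set against gate and part by interaction terms. Between gates edgeR passed 0% of genes, with 15 at an unadjusted p under 0.05, among them Ptpn5 (0.15 ± 0.07 (SE), edgeR adjusted p = 0.996) and Gpr6 (-0.26 ± 0.13 (SE), edgeR adjusted p = 0.996). Between the dorsal and ventral part edgeR again passed 0%, with 8 genes at an unadjusted p under 0.05 and none of the 8 here among them. DESeq2 and limma passed 0 genes in both. For Scn4b the interaction of age with part was 0.10 ± 0.12 (SE, edgeR adjusted p = 0.964), so a difference of change between parts was not detectable with these sections.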

How the data were processed

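MERFISH data of 4 coronal sections were used, grouped by the deposited titles and ages. The authors decoded transcripts with MERLIN, segmented cells with the vendor's software and deposited the count of each of 383 genes in each cell, without normalization, and the cell's volume, an imaging signal in µm³. The authors' table of mean counts served only to check the reading. Labels inside the Young data carry other numbers than the titles. Cells with fewer than 10 genes or under 50 µm³ were left out, as in the study.

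Classes were rebuilt by Louvain clustering (igraph 0.11.9; 15 principal components, 20 neighbours, resolution 0.08) and named by markers. The striatum comprised 50 µm squares with at least 40% spiny neuron-like cells within 150 µm. Axes were set from the anterior commissures, and dorsal, ventral, lateral and medial parts were divided at the middle of the striatum of each hemisphere. Each commissure was taken as the largest inner patch rich in oligodendrocyte-like cells. It held 17, 16, 7 and 9 squares in the Young hemispheres and 42, 32, 32 and 2 in the Aged ones, the 2 squares in 1 hemisphere of the second Aged section. Whether the sections of both ages were cut at the same level of the striatum was not tested.

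Counts were summed per section and tested with edgeR 4.0.16 (TMM, filterByExpr, quasi-likelihood, Benjamini-Hochberg over all genes tested, threshold 0.05; R 4.3.3), with the section as a block for comparisons within sections. The SE is the log2 fold change over the root of its F statistic. DESeq2 1.42.0 and limma 3.58.1 (log2 of level plus 0.1) were alternatives, and the fits were tested on simulated data. Named beside the 8 genes were, by rule, Drd1, Drd2, the 2 nearest genes of each, and up to 3 called genes of the striatal list. Some values named by this rule are not reported here. The genes and lists were chosen with earlier results of these data known. The total count of kept cells was 36035355 and 31172121 for the Young and 18765491 and 29004185 for the Aged sections. Replicate numbers are not stated to pair sections and were not taken to do so. Same-numbered sections deviated in opposite directions from their group means (r of -0.35 in spiny cells). With 2 sections per age the crossed pairing has the same r with the sign turned (0.35), so this value does not decide on pairing.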

Additional observations from a re-analysis of the deposited data

Results flagged for a closer look

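By edgeR, the difference between Drd1-rich and Drd2-rich cells differed between the dorsal and ventral part for 2 of the 8 genes. The interaction was 0.34 on the log2 scale for Scn4b and 0.27 for Arpp21, and it was chosen for a test after the levels had been seen. Over 16 alternatives each, it stayed between 0.28 and 0.42 for Scn4b and between 0.21 and 0.34 for Arpp21. Scn4b lost the call by limma alone, and Arpp21 by limma and per cell volume.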

How the results depend on the processing

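Between the gates, 3 of the 8 genes passed by limma on log2 levels, where Scn4b turned to 0.00896, and 4 to 7 under the other alternatives. Counted per cell volume, 4 genes turned: Arpp21 to 0.19, Scn4b to 0.11, Ptpn5 to 0.10 and Rgs9 to 0.0786. Gpr6 and Rgs4 kept direction and call under all 15 alternatives. Ptpn5, not called, passed with a negative value in 8 (lowest edgeR adjusted p 0.00114, without the first Aged section), and Pcp4l1 passed in 2, by limma and per cell volume. Along the dorsal-ventral axis 5 to 7 genes passed, with Ptpn5 gained in 7 of 14 alternatives (lowest edgeR adjusted p 0.0047, without the first Aged section), and along the medial-lateral axis 4 or 5. Leaving out 1 section gave 0 to 2 of the 8 genes with age in spiny cells (2 without the first Young section, Rgs4 and Scn4b) and 0 to 1 in Drd2-rich cells (Rgs4, again without the first Young section). The lone section of an age is then assumed to vary like the others. With the replicate block, 0 of the 8 genes passed with age in any of the 4 groups of cells, and with crossed pairing also 0, with at most 1 gene of all. Over all genes, leaving out 1 section gave 0 to 3 calls with age in spiny cells, 0 to 1 in Drd1-rich, 0 to 2 in Drd2-rich cells and 0 to 6 in other neurons (6 without the second Aged section, 5 without the second Young section), against 0 with all sections. The cause of these shifts was not tested. Classes and outlines were rebuilt from markers and landmarks. Depth limits Gpr6 most, with 1246 transcripts in spiny and 187 in Drd1-rich cells of the lowest section.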
